A study of Mus musculus with 16 samples.

Results

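Aldehyde dehydrogenases are enzymes that oxidise aldehydes to carboxylic acids with NAD or NADP as the cofactor. The 9 genes described here are Aldh1a1, Aldh2, Aldh3a2, Aldh3b1, Aldh4a1, Aldh7a1, Aldh9a1, Aldh16a1 and Aldh18a1, picked by symbol from 53342 genes in the tables. The family was chosen because Aldh3b1 was low in wild type after 5-fluorouracil and higher there in the mutant, so the values of Aldh3b1 are given as a description with no test in any comparison, and counts of genes past a test cover the other 8. The cells were LSK cells, the fraction of mouse bone marrow that is negative for lymphoid lineage antigens and positive for Sca1 and c-Kit (gated B220-, CD3-, CD4-, CD5- and CD8-) and that holds the hematopoietic stem cells and multipotent progenitors. In blood-forming cells the family is best known for Aldh2, which clears acetaldehyde and works beside the Fanconi anemia pathway that repairs the DNA damage aldehydes cause, and for Aldh1a1, which makes retinoic acid and acts on the fluorescent aldehyde substrates used to sort stem cells. Other members have narrower substrates in lipid, amino acid and carnitine metabolism.

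RNA sequencing covered 16 libraries in 4 groups, each sampled 10 days after 1 injection. Homozygous Gata2 +9.5(Ets)-/- mice (the mutant) given 250 mg/kg 5-fluorouracil (5-FU, an antimetabolite that kills cycling cells) gave 3 libraries, and wild-type (WT) mice given the same dose gave 3. Mutant mice given phosphate-buffered saline (PBS) gave 5 libraries, and WT mice given PBS gave 5. All mice were 8 to 14 weeks old on the C57BL/6J background, and the mutation is a C>T transition in the Ets motif of the +9.5 enhancer of Gata2, the gene of a GATA-family transcription factor of blood stem cells. The change is in the germ line, so every cell of the mutant animals carries it. Nothing in the labels ties a replicate to a mouse of its own, so p values measure only how far these libraries spread, which may be technical.

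The libraries summed to between 19.37 and 28.88 expected counts, in units of 1e6, and 16482 genes, all 9 members among them, passed the filter on low counts. Marker genes of the sort were detected in every group, with 0 of 9 at 0 and a summed level between 1180 and 4990 CPM (counts per 1e6, scaled by the TMM method). Immunoglobulin genes held 5.69 to 26.6% of the counts in mutant 5-FU libraries and 0.0392 to 0.332% in WT 5-FU libraries. They held 3.67 to 50.2% in mutant PBS libraries and 6.37 to 44.2% in WT PBS libraries. Sample codes are written with or without a leading zero, with no stated meaning. After 5-FU every mutant code has the zero and no WT code does, so this writing and the genotype cannot be told apart there.

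The promoters of the 3 genes on which the comparisons turn are shown because the mutated element is an Ets motif and its target gene encodes a GATA factor. Each is 200 bases of RefSeq sequence on GRCm38.p6, read 5′ to 3′ on the gene's strand. It runs from 250 to 51 bases before the start set for that sequence. For Aldh3b1 and Aldh16a1 that start is not the gene's start in GENCODE M21, the annotation used below. Capitals mark matches to CCGGAA (an Ets-type motif) or GATAA (the motif of GATA factors) on either strand. Aldh3b1 stands at chr19:3929829-3930028, Aldh16a1 at chr7:45154587-45154786 and Aldh18a1 at chr19:40588514-40588713, all on the minus strand.
Aldh3b1: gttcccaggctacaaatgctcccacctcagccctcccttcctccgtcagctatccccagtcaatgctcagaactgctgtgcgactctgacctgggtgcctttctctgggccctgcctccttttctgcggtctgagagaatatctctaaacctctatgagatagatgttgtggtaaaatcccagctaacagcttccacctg
Aldh16a1: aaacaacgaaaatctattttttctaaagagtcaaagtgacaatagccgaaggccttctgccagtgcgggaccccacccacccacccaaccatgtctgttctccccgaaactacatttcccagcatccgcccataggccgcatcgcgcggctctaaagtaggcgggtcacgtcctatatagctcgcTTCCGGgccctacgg
Aldh18a1: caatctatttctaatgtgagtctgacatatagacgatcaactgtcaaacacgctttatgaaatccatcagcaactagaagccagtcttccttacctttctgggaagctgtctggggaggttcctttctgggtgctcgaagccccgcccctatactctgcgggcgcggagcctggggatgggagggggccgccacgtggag
Aldh16a1 held 1 match to CCGGAA, on the opposite strand, and the other 2 windows held no match to either motif. Of 32851 promoter windows of the same length, 8.03% held CCGGAA and 19.3% held GATAA. These are letter matches and were not tested as binding sites.

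Aldh3b1, whose enzyme oxidises medium- and long-chain aldehydes that arise from lipid peroxidation, was scarce in WT LSK cells after 5-FU and not in the other groups. Its gene lies on the minus strand of chromosome 19, from 3913491 to 3929808 in GENCODE M21 (GRCm38). It read 18.4, 22.1 and 14.0 CPM in mutant 5-FU libraries, against 1.31, 1.20 and 1.86 CPM in WT 5-FU libraries. Under PBS it read 26.2, 27.7, 56.8, 25.7 and 15.1 CPM in mutant libraries, against 45.5, 31.7, 31.6, 49.0 and 22.3 CPM in WT libraries. The 3 WT 5-FU libraries lay below all 13 others, the mutant 5-FU libraries overlapped the lowest mutant PBS library, and the PBS groups overlapped. The WT 5-FU values rest on 43, 45 and 49 counts, so they are above the floor of 3 counts per library. Because this is RNA from bulk sorted cells, fewer cells that express Aldh3b1 and less Aldh3b1 RNA per cell cannot be told apart.

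In WT the log2 fold change of Aldh3b1, 5-FU over PBS, was -4.63 ± 0.45 (SE), a level 24.8-fold lower after 5-FU. In the mutant the same change was -0.73 ± 0.36. After 5-FU the mutant over WT log2 fold change was 3.64 ± 0.44, a 12.5-fold higher level, and under PBS it was -0.25 ± 0.30. The 5-FU response in the mutant minus that in WT came to 3.90 ± 0.52 on the log2 scale. On the log2(TPM + 1) scale the WT value was -2.56, with the median of all genes at 1.01, and the value after 5-FU was 2.21, with that median at -0.59. These comparisons share libraries, so the WT 5-FU group enters 3 of these values. Within libraries whose codes are written alike, the log2 fold change of 5-FU over PBS was -4.61 in WT and -0.99 in the mutant.

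**Figure D1:**
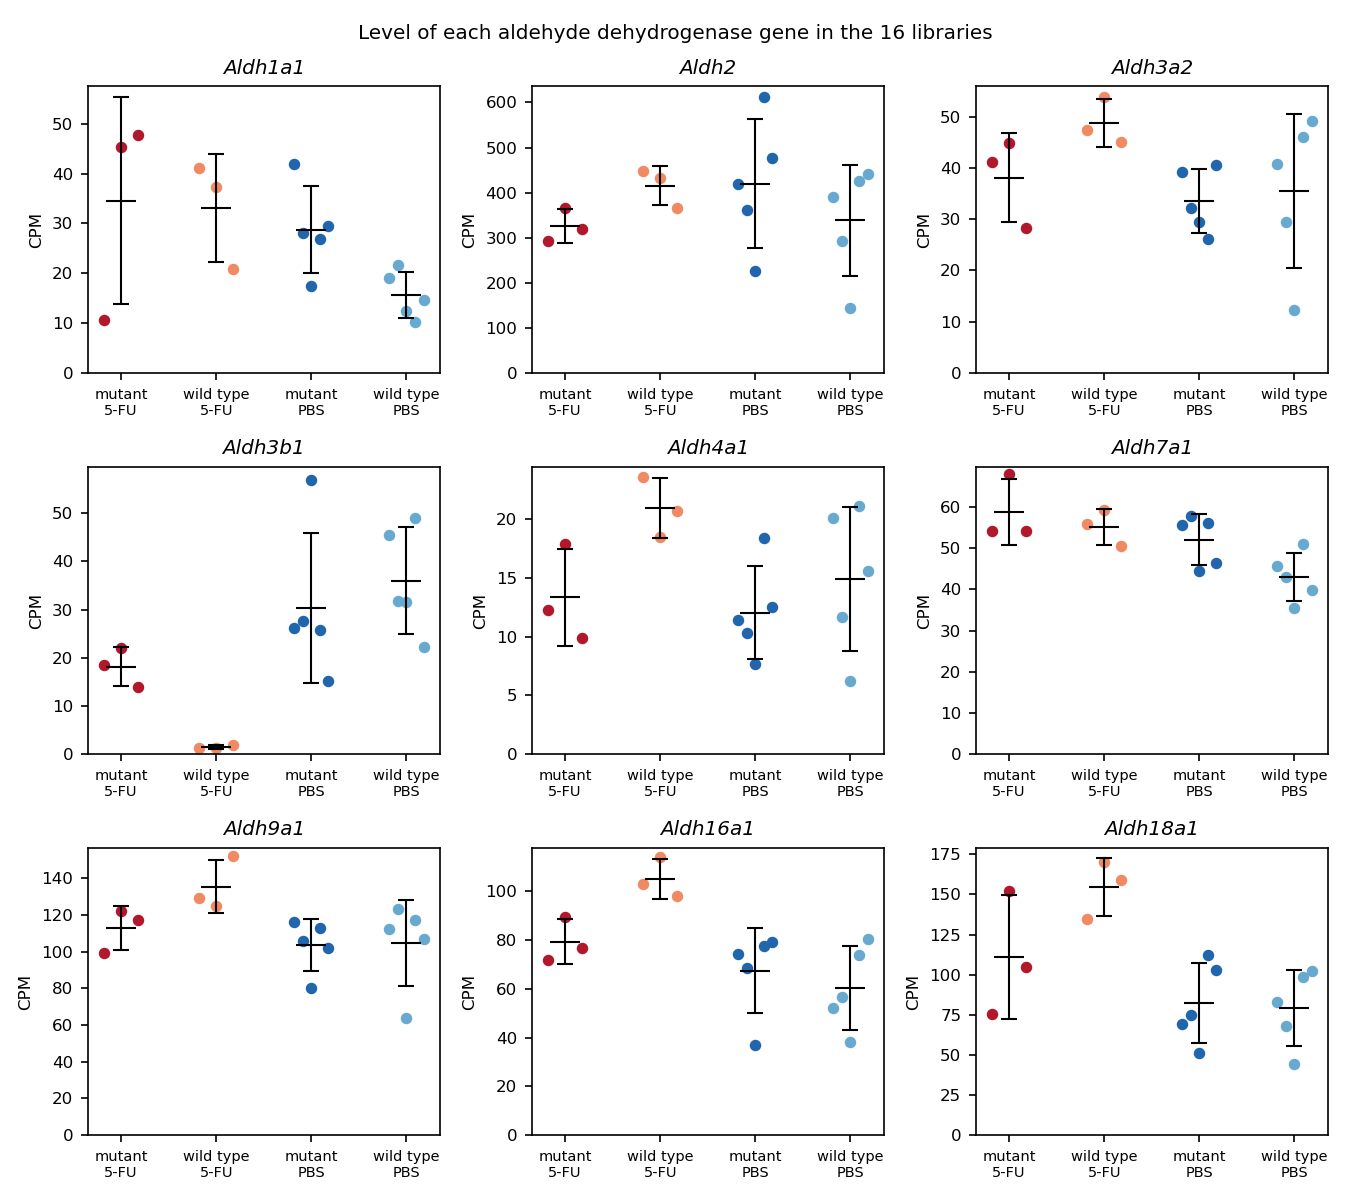
CPM of each of the 9 genes (vertical axes, each from 0) in the 16 libraries, by group; each point is 1 library, and the bar and whiskers are the mean ± SD (n = 3 for 5-FU groups, n = 5 for PBS groups). Aldh3b1 stood between 1.20 and 1.86 CPM in WT 5-FU libraries, below every other library, while the other 8 genes had no group so far from the rest.

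Aldh3b1 has near copies beside it on chromosome 19, Aldh3b2 and Aldh3b3, and reads shared among them could be split by the counting. Aldh3b3 had 0 counts in all mutant 5-FU libraries and 0 in all WT 5-FU libraries, against 45 and 44 counts summed over the mutant PBS and WT PBS groups. Aldh3b2 had 2 counts in mutant 5-FU libraries and 0 in WT 5-FU libraries, against 19.1 in mutant PBS and 19 in WT PBS libraries. Both were thus far below Aldh3b1, which had 1630 counts in mutant 5-FU libraries and 137 in WT 5-FU libraries.

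Marker genes of other cell types moved with Aldh3b1 (plot of Aldh3b1 beside marker genes). The 6 plasma cell markers summed to 19100, 10000 and 2230 CPM in mutant 5-FU libraries, against 181, 137 and 374 CPM in WT 5-FU libraries. They summed to 1540 to 73200 CPM in mutant PBS libraries and 3100 to 64000 CPM in WT PBS libraries, and none of the 6 was at 0 in any group. In the mutant PBS and WT PBS groups, replicate 5 held both the least plasma cell marker RNA and the least Aldh3b1, and replicate 3 of the mutant 5-FU group did likewise. In mutant PBS and in WT 5-FU, Aldh3b1 and the plasma cell marker RNA ranked the libraries in the same order. In WT PBS and in mutant 5-FU the rest of the order did not hold. In WT PBS, replicate 3 had the most plasma cell marker RNA, 64000 CPM, with 31.6 CPM of Aldh3b1, while replicate 4 had 11900 CPM of marker RNA and the most Aldh3b1 of that group, 49.0 CPM. In mutant 5-FU, replicate 1 had more marker RNA than replicate 2 and less Aldh3b1, 18.4 against 22.1 CPM. Of 12 summed marker lists of other cell types, 4 had every WT 5-FU library below every mutant 5-FU and every WT PBS library. These were the plasma cell, B cell, erythroid, and eosinophil and basophil lists. Separate groups were common among single genes, in either direction. They were found in 39.4% of all genes for mutant against WT after 5-FU and in 31.8% for 5-FU against PBS in WT. How many genes were low in both comparisons was not counted.

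The 6 B cell markers summed to 61.7 to 221 CPM in mutant 5-FU libraries, against 21.8 to 33.8 CPM in WT 5-FU libraries. Of these, Pax5 was at 0 in WT 5-FU libraries and read 0 to 0.0304 CPM in mutant 5-FU libraries. Under PBS the B cell markers summed to 88.7 to 955 CPM in mutant libraries and 118 to 751 CPM in WT libraries. The 7 erythroid markers summed to 54.2 to 186 CPM in mutant 5-FU libraries, against 21.6 to 37.0 CPM in WT 5-FU libraries. Within that list Slc4a1 was at 0 in WT 5-FU libraries and read 0 to 1.89 CPM in mutant 5-FU libraries. Slc4a1 encodes the anion exchanger of the red cell membrane. The beta globin Hbb-bs read 18.1 to 98.0 CPM in mutant 5-FU and 2.90 to 8.85 CPM in WT 5-FU libraries. Not every gene of that list followed the sum. Klf1, an erythroid transcription factor, read 5.26 to 10.9 CPM in mutant 5-FU and 5.29 to 11.5 CPM in WT 5-FU libraries, and Epor, the erythropoietin receptor, was higher in WT 5-FU libraries, at 13.3 to 16.3 CPM, than in WT PBS libraries, at 6.25 to 9.28 CPM. Under PBS the erythroid sums were 29.0 to 498 CPM in mutant libraries and 165 to 888 CPM in WT libraries. The 6 eosinophil and basophil markers summed to 88.2 to 103 CPM in mutant 5-FU libraries, against 14.0 to 25.5 CPM in WT 5-FU libraries, and Epx, the eosinophil peroxidase, was at 0 in both. Within this list Prg2 read 20.4 to 94.2 CPM in mutant 5-FU and 0.133 to 1.63 CPM in WT 5-FU libraries, and Ear2 2.36 to 55.6 and 0.0304 to 0.0532 CPM. The basophil protease Mcpt8 went the other way, at 0.0787 to 2.16 CPM in mutant 5-FU and 3.11 to 6.99 CPM in WT 5-FU libraries, and Cpa3 overlapped. Under PBS these sums were 46.1 to 2460 CPM in mutant libraries and 123 to 1880 CPM in WT libraries. With the immunoglobulin share as a covariate, a fit chosen after seeing the data, the Aldh3b1 log2 fold change was -3.89 ± 0.35 for 5-FU over PBS in WT and 3.21 ± 0.34 for mutant over WT after 5-FU. That share was 0.0392 to 0.332% in WT 5-FU libraries and at least 3.67% in every other library. The fit therefore had no library of another group at the WT 5-FU level and could not measure the part of plasma cells there. It held no term for erythroid cells, eosinophils or basophils. The part of these other cell types in the Aldh3b1 values was not tested.

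Neutrophil and monocyte markers did not track Aldh3b1 in this way. The 8 neutrophil markers summed to 2.01, 79.1 and 2.34 CPM in mutant 5-FU libraries, where Aldh3b1 read 14.0 to 22.1 CPM, and to 1.12, 0.958 and 13.1 CPM in WT 5-FU libraries. They summed to 3460 to 23000 CPM in mutant PBS libraries and 2810 to 20100 CPM in WT PBS libraries. The 8 monocyte and macrophage markers summed to 97.8 to 321 CPM in mutant 5-FU libraries, against 36.2 to 133 CPM in WT 5-FU libraries, and these ranges overlapped.

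**Figure D2:**
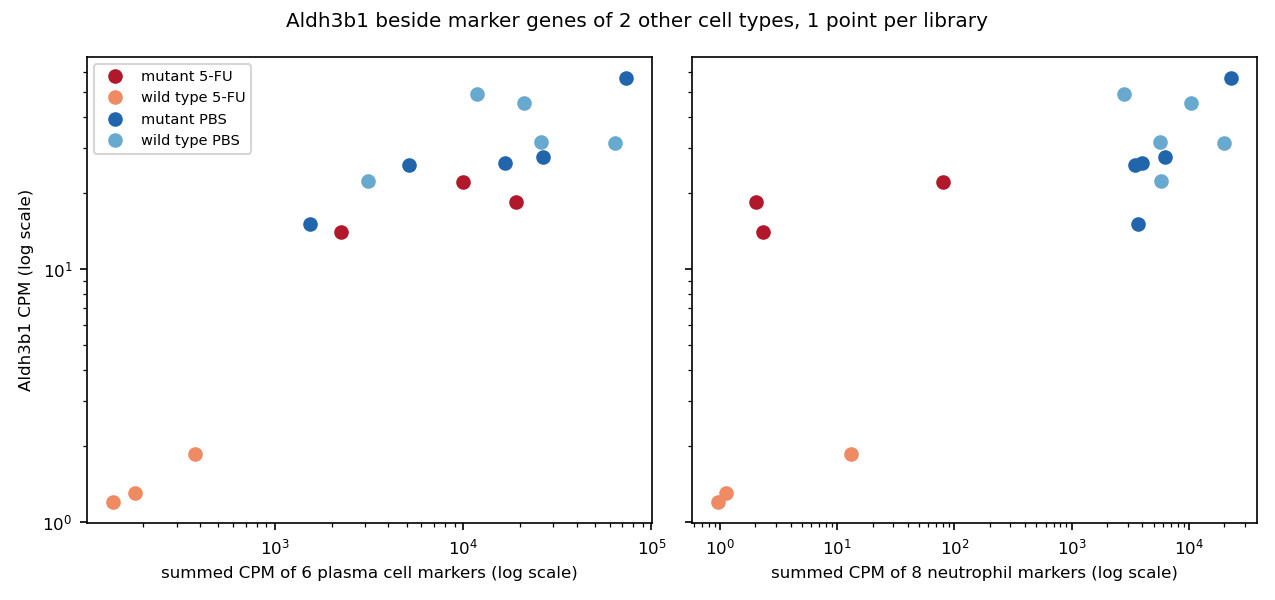
Aldh3b1 CPM (vertical, log scale) against the summed CPM of 6 plasma cell markers (left) and 8 neutrophil markers (right), both on log scales, with 1 point per library and a colour per group. The 3 WT 5-FU libraries are at the lower left of the plasma cell panel, at 137 to 374 CPM of marker RNA, while mutant 5-FU libraries with 2.01 to 79.1 CPM of neutrophil marker RNA still read 14.0 to 22.1 CPM of Aldh3b1.

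The 5 genes with profiles most like that of Aldh3b1 were Rasgrp3, Cd83, Sdc1, Sdc4 and Blnk. Likeness was the root mean square difference of log2 CPM, each gene centred on its mean over the 16 libraries, among 9979 genes with a mean of at least 5 CPM. The difference was 0.41 for Rasgrp3, an exchange factor that activates Ras-family GTPases. It was 0.43 for Cd83, a surface protein of activated dendritic and B cells. It was 0.56 for the syndecan Sdc1, known as CD138 on plasma cells and 1 of the 6 plasma cell markers above, 0.56 for the syndecan Sdc4 and 0.57 for Blnk, an adaptor of the B cell receptor. Sdc1 read 36.9 to 165 CPM in mutant 5-FU libraries, against 12.8 to 16.2 CPM in WT 5-FU libraries, and 50.1 to 339 CPM in mutant PBS against 106 to 308 CPM in WT PBS libraries. Blnk read 13.3 to 59.1 CPM in mutant 5-FU libraries, against 1.22 to 3.27 CPM in WT 5-FU libraries.

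**Figure D3:**
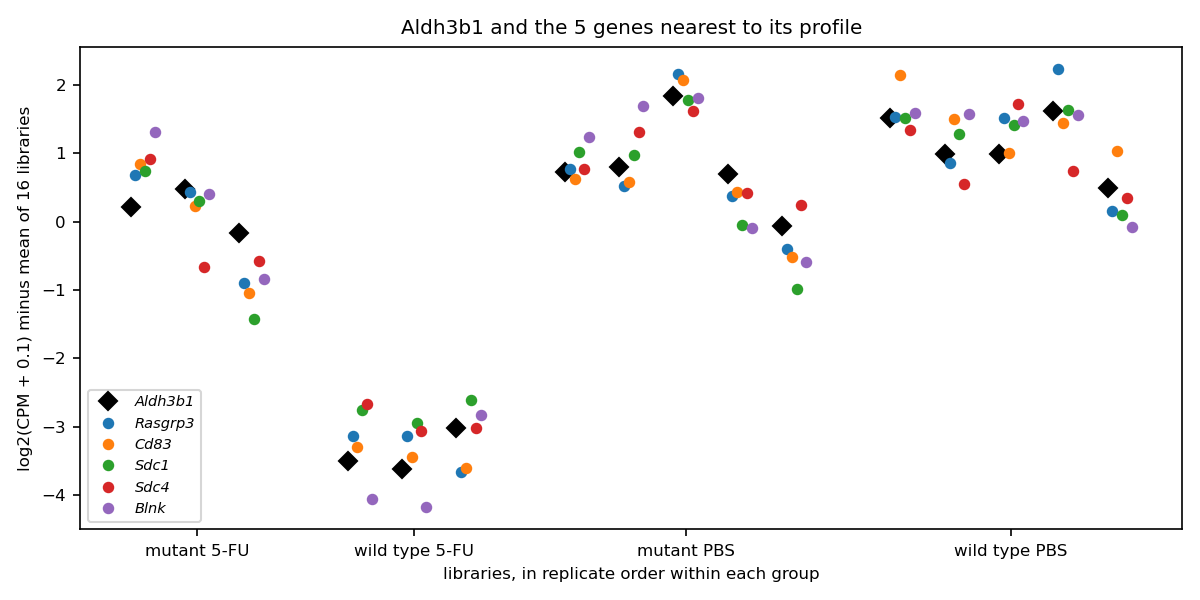
Log2(CPM + 0.1) of Aldh3b1 (black diamonds) and of its 5 nearest genes (coloured circles), each minus its own mean over the 16 libraries, with libraries side by side within groups in replicate order. All 6 genes were lowest in the 3 WT 5-FU libraries; these genes were picked for this likeness, so the match is a description.

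Per transcript length, Aldh2 was the most abundant member in 16 of 16 libraries, with 49.8 to 71.1% of the summed TPM (transcripts per 1e6) of the 9 genes. Aldh16a1, Aldh9a1, Aldh18a1 and Aldh7a1 filled the middle of the order, with ranks between 2 and 6 in every library, and their TPM ranges overlapped their neighbours' in most groups. Aldh4a1 was last in 12 libraries. Aldh3b1 ranked 7 to 8 in mutant 5-FU libraries and 9, the last place, in all 3 WT 5-FU libraries, against 3 to 8 in mutant PBS and 3 to 7 in WT PBS libraries. It made up 1.72 to 2.51% of the members' TPM in mutant 5-FU libraries, against 0.114 to 0.204% in WT 5-FU libraries, and 1.5 to 8.54% in mutant PBS against 2.32 to 5.92% in WT PBS libraries. The effective length of Aldh16a1 ran from 628 to 2091 bases among libraries, so its TPM moves with the transcripts assigned as well as with its counts.

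After 5-FU in WT, 2 of the 8 tested members rose and 0 fell: Aldh16a1 and Aldh18a1. Over all genes, 14.9% passed the same test (edgeR quasi-likelihood F test, Benjamini-Hochberg adjusted p under 0.05 over 16482 genes), 5.55% higher and 9.31% lower. The 8 members all had positive log2 fold changes, from 0.29 to 1.08 with a median of 0.46, beside a median of -0.11 over all genes. The groups did not overlap in 3 of the 8, Aldh9a1, Aldh16a1 and Aldh18a1, each higher after 5-FU, against 31.8% of all genes with no overlap in either direction.

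Aldh18a1 encodes the mitochondrial enzyme that turns glutamate into pyrroline-5-carboxylate, the start of proline synthesis. It read 135, 170 and 159 CPM in WT 5-FU libraries, against 83.0, 67.9, 44.4, 98.4 and 102 CPM in WT PBS libraries. Every WT 5-FU library was above every WT PBS library. The log2 fold change was 0.97 ± 0.29 (adjusted p = 0.0383 by edgeR), a 1.96-fold higher level. In the mutant it read 75.3, 152 and 105 CPM after 5-FU, against 69.4, 74.9, 51.2, 112 and 103 CPM under PBS, and the groups overlapped. That log2 fold change was 0.43 ± 0.30 (adjusted p = 0.611 by edgeR), and the difference between the genotypes' responses was -0.54 ± 0.42 (adjusted p = 0.64), which did not pass.

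Aldh16a1 encodes a family member whose mammalian form lacks the catalytic cysteine. It read 103, 114 and 98.1 CPM in WT 5-FU libraries, against 52.0, 56.5, 38.1, 74.1 and 80.6 CPM in WT PBS libraries. These groups were also separate. The log2 fold change was 0.80 ± 0.25 (adjusted p = 0.0432 by edgeR), a 1.74-fold higher level. In the mutant it read 71.8, 89.5 and 76.9 CPM after 5-FU, against 74.5, 68.7, 37.0, 77.7 and 79.2 CPM under PBS, and the groups overlapped. That log2 fold change was 0.24 ± 0.25 (adjusted p = 0.786 by edgeR), and the difference between the responses was -0.56 ± 0.36 (adjusted p = 0.584), which did not pass.

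Both calls sat near the threshold. The Aldh18a1 call was kept in 17 of 28 alternative fits, with adjusted p between 0.000842 and 0.719, and the Aldh16a1 call in 12 of 28, with adjusted p between 0.000716 and 0.752. Neither passed without replicate 1, 2 or 3 of WT PBS, without replicate 1, 2 or 3 of WT 5-FU, or without replicate 3 of mutant 5-FU. Aldh18a1 passed and Aldh16a1 did not when replicate 1 or 2 of mutant PBS, or replicate 1 or 2 of mutant 5-FU, was left out. With libraries whose codes are written alike the log2 fold changes were 0.63 for Aldh18a1 (adjusted p = 0.269) and 0.44 for Aldh16a1 (adjusted p = 0.425). A fit that took the immunoglobulin share as a covariate gave 0.29 (adjusted p = 0.719) and 0.24 (adjusted p = 0.752).

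**Figure D4:**
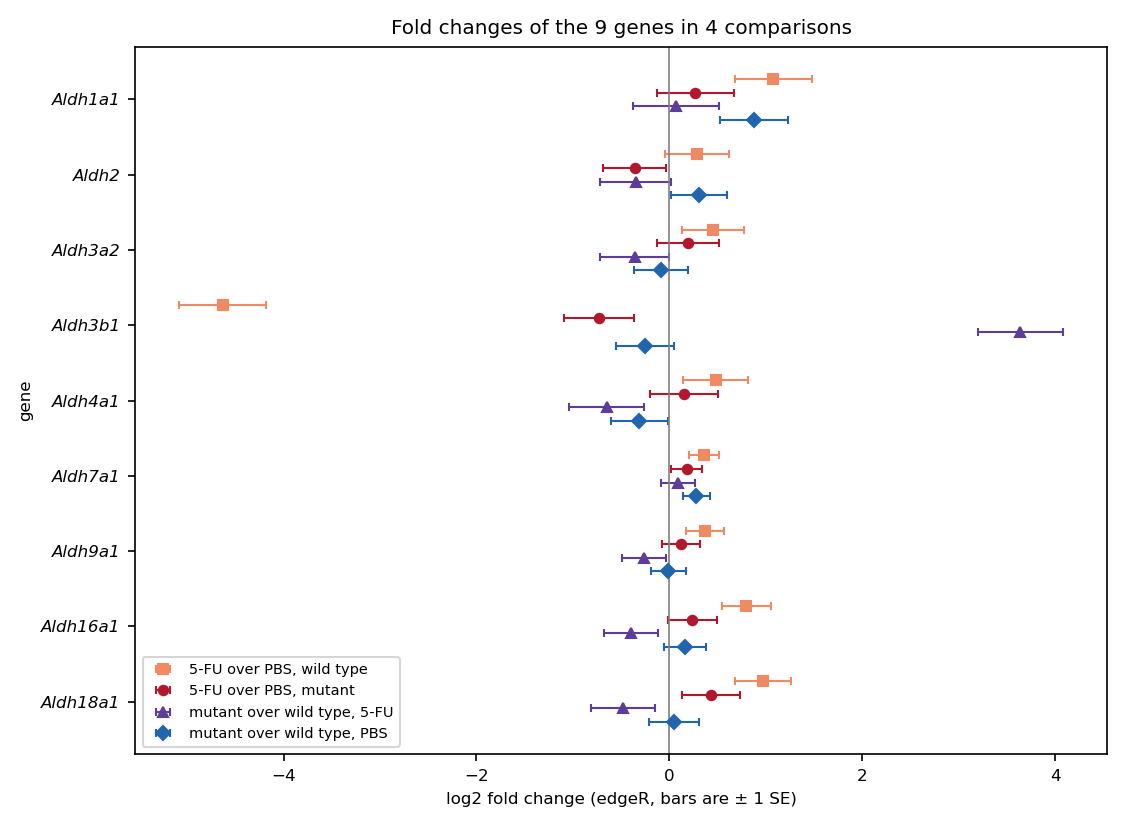
Log2 fold changes (horizontal axis) of the 9 genes (rows) from edgeR in 4 comparisons, marked by colour and shape; bars are ± 1 SE. Aldh3b1 stands apart at -4.63 for 5-FU over PBS in WT and 3.64 for mutant over WT after 5-FU, and the other 8 genes lie between -0.65 and 1.08.

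The other 6 members did not pass for 5-FU in WT. Aldh1a1, the cytosolic retinaldehyde dehydrogenase, read 41.1, 37.4 and 20.8 CPM in WT 5-FU libraries, against 19.0, 21.7, 12.5, 10.3 and 14.7 CPM in WT PBS libraries. The groups overlapped only in that the lowest WT 5-FU library was below the highest WT PBS library. The log2 fold change was 1.08 ± 0.40 (adjusted p = 0.0712 by edgeR), and Aldh1a1 passed in 5 of 28 alternative fits. Aldh1a7 is a near copy of Aldh1a1 on chromosome 19, so their reads too could be split. Aldh1a7 had 12 counts in mutant 5-FU and 29 in WT 5-FU libraries, against 119 in mutant PBS and 172 in WT PBS libraries.

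Aldh2, the mitochondrial acetaldehyde dehydrogenase, read 447, 433 and 366 CPM in WT 5-FU libraries, against 390, 293, 144, 425 and 442 CPM in WT PBS libraries, with overlap. Its log2 fold change was 0.29 ± 0.33 (adjusted p = 0.518 by edgeR). In the mutant Aldh2 read 292, 367 and 319 CPM after 5-FU, against 420, 362, 226, 613 and 477 CPM under PBS, also with overlap. Aldh3a2, the fatty aldehyde dehydrogenase that acts on long-chain aldehydes, averaged 48.8 ± 4.57 CPM (SD, n = 3) in WT 5-FU libraries and 35.5 ± 15.0 CPM (SD, n = 5) in WT PBS libraries. Its log2 fold change was 0.45 ± 0.32 (adjusted p = 0.302 by edgeR).

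The enzymes of amino acid breakdown and carnitine synthesis did not pass. Aldh4a1, which converts pyrroline-5-carboxylate to glutamate in proline breakdown, read 23.6, 18.5 and 20.7 CPM in WT 5-FU libraries, against 20.1, 11.7, 6.26, 21.1 and 15.6 CPM in WT PBS libraries. The groups overlapped, and the log2 fold change was 0.48 ± 0.34 (adjusted p = 0.306 by edgeR). Aldh7a1, of lysine breakdown, averaged 55.2 ± 4.36 CPM in WT 5-FU libraries and 43.0 ± 5.93 CPM in WT PBS libraries (SD), with a log2 fold change of 0.36 ± 0.16 (adjusted p = 0.125). Aldh9a1, of carnitine synthesis, read 129, 125 and 152 CPM in WT 5-FU libraries, against 112, 123, 63.8, 117 and 107 CPM in WT PBS libraries. Those Aldh9a1 groups were separate by a narrow margin, and the log2 fold change of 0.37 ± 0.20 did not pass (adjusted p = 0.186 by edgeR).

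In the mutant, 0 of the 8 members passed for 5-FU over PBS by edgeR, against 2.2% of all genes (0.837% higher and 1.36% lower), and 0 had an unadjusted p under 0.05. No member's groups were separate, against 9.99% of all genes. DESeq2, limma-voom and limma-trend on TPM also called 0. Adjusted p ran from 0.611 to 0.914, and log2 fold changes ran from -0.36 to 0.43 with a median of 0.18, beside -0.03 over all genes. Aldh1a1 read 10.7, 45.4 and 47.7 CPM in mutant 5-FU libraries, against 42.0, 28.0, 17.5, 26.9 and 29.5 CPM in mutant PBS libraries. Replicate 1 of the mutant 5-FU group was below every mutant PBS library and the other two were above them all.

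After 5-FU, 0 of the 8 members differed between mutant and WT by edgeR, against 1.95% of all genes, and 0 had an unadjusted p under 0.05. DESeq2 and limma-trend on TPM called 0, and limma-voom called 1, Aldh4a1, where 30.9% of all genes passed. Log2 fold changes ran from -0.65 to 0.09 with a median of -0.35, beside 0.07 over all genes. In 4 of the 8, Aldh3a2, Aldh4a1, Aldh9a1 and Aldh16a1, every mutant 5-FU library was below every WT 5-FU library, and groups did not overlap in either direction in 39.4% of all genes. Aldh4a1 read 12.3, 17.9 and 9.87 CPM in mutant 5-FU libraries, against 23.6, 18.5 and 20.7 CPM in WT 5-FU libraries, a log2 fold change of -0.65 ± 0.39 (adjusted p = 0.371 by edgeR). For Aldh16a1 it was -0.40 ± 0.28 (adjusted p = 0.445) and for Aldh18a1 -0.48 ± 0.33 (adjusted p = 0.433).

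Under PBS, 0 of the 8 members differed between mutant and WT by edgeR, DESeq2, limma-voom or limma-trend on TPM, against 0.0182% of all genes by edgeR. An unadjusted p under 0.05 was reached by 1, Aldh1a1. It read 42.0, 28.0, 17.5, 26.9 and 29.5 CPM in mutant PBS libraries, against 19.0, 21.7, 12.5, 10.3 and 14.7 CPM in WT PBS libraries. The lowest mutant library lay inside the WT range, and the other 4 lay above it. The pairing by number under PBS was taken from the data, and mutant replicate 4 matched WT replicate 5 best. How many of all genes were higher in the mutant in 5 of 5 pairs was not counted. Between libraries of the same number, which deviated together under PBS, Aldh1a1 was higher in the mutant in 5 of 5 pairs. The log2 fold change was 0.88 ± 0.35 (adjusted p = 1 by edgeR). With the replicate number as a block it was 0.91 ± 0.37, and the adjusted p was again 1. Aldh7a1 had 0.28 ± 0.14 and Aldh2 0.31 ± 0.29, also with adjusted p of 1, and both were higher in the mutant in 5 of 5 pairs. Aldh18a1 was higher in 4 of 5 pairs, Aldh16a1 in 3, Aldh3a2 and Aldh9a1 in 2 each and Aldh4a1 in 1. Within each PBS group, replicates 1 and 2 shared the first part of their sample codes, as did replicates 4 and 5. The 5 pairs may therefore not be independent of each other.

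The 5-FU response differed between genotypes in 0 of the 8 members by edgeR, DESeq2, limma-voom and limma-trend on TPM, against 0.589% of all genes by edgeR, and 0 had an unadjusted p under 0.05. Adjusted p ran from 0.584 to 0.826. All 8 values of mutant minus WT were negative, from -0.81 to -0.18 on the log2 scale with a median of -0.44, beside 0.07 over all genes. They rest on the same libraries as the comparisons above, so the shared sign is not separate evidence.

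Of the 12 other Aldh genes, 9 had enough counts to test. Aldh3b3 alone passed, lower after 5-FU in WT (adjusted p = 0.0394 by edgeR), where 14.9% of all genes passed. Its WT 5-FU libraries all had 0 counts and its WT PBS libraries read 0 to 0.823 CPM, close to the floor, so no fold is given. Those groups overlapped at 0. That WT call ended without replicate 1, 2 or 4 of WT PBS or any 1 WT 5-FU library. In the mutant its 5-FU libraries also had 0 counts, against 0.127 to 2.03 CPM under PBS, with no overlap. The unadjusted p by edgeR was 0.00294 in the mutant and 0.0046 in WT, but the mutant comparison did not pass (adjusted p = 0.0899). The low level after 5-FU was thus not particular to WT. Aldh1l1, which oxidises formyltetrahydrofolate in folate metabolism, read 30.5 to 40.3 CPM in WT 5-FU libraries, against 9.34 to 21.7 CPM in WT PBS libraries. These groups were separate, and the log2 fold change of 1.27 ± 0.42 stood just outside the threshold (adjusted p = 0.0522 by edgeR). In mutant 5-FU libraries Aldh1l1 read 15.9 to 22.8 CPM, below all WT 5-FU libraries, with a mutant over WT log2 fold change of -0.89 ± 0.48 (adjusted p = 0.328). Aldh5a1, the succinate semialdehyde dehydrogenase, had a mutant over WT log2 fold change of 0.94 ± 0.33 under PBS (unadjusted p = 0.0113, adjusted p = 1 by edgeR).

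Aldh1l2, the mitochondrial counterpart of Aldh1l1, read 2.56, 3.87 and 0.0911 CPM in mutant 5-FU libraries, against 0.0607, 0.0266 and 0.38 CPM in WT 5-FU libraries. It read 0.0373 to 5.81 CPM in mutant PBS and 0.643 to 5.99 CPM in WT PBS libraries. Every WT 5-FU library was thus below every WT PBS library, while the 5-FU groups overlapped. The log2 fold change was -3.95 ± 1.45 for 5-FU in WT (unadjusted p = 0.0145, adjusted p = 0.0702 by edgeR) and 3.83 ± 1.49 for mutant over WT after 5-FU (unadjusted p = 0.0206, adjusted p = 0.19), and neither passed. Aldh3a1 read 0.787 to 1.27 CPM in mutant 5-FU libraries, above all other libraries, against 0.0304 to 0.213 CPM in WT 5-FU, 0 to 0.523 CPM in mutant PBS and 0 to 0.25 CPM in WT PBS libraries. Its mutant over WT log2 fold change after 5-FU, 3.12 ± 1.53, did not pass (adjusted p = 0.288 by edgeR).

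The retinaldehyde dehydrogenase Aldh1a2 had 63 counts over the mutant 5-FU libraries and 7 over the WT 5-FU libraries, against 52 in mutant PBS and 88 in WT PBS libraries. Aldh1a3 had 23 and 15 counts in the mutant and WT 5-FU groups, against 13 and 11 in the mutant and WT PBS groups, and was too low to test. Aldh1a1 thus held most of the counts of the retinaldehyde dehydrogenases, with 3280 in mutant 5-FU and 3310 in WT 5-FU libraries, against 3340 in mutant PBS and 1620 in WT PBS libraries. Aldh8a1 had 6 counts in all, in WT PBS libraries.

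Genes that work beside the members were taken from 6 pathway lists, and their counts after 5-FU in WT stand beside the 14.9% of all genes that passed. Of 11 tested genes of retinoid metabolism, 0 rose and 3 fell in WT, and 0 rose and 2 fell in the mutant, with list medians of -0.20 in WT and 0.06 in the mutant. Dhrs3, a reductase that turns retinaldehyde back into retinol, fell in both. It averaged 10.4 CPM in WT 5-FU and 38.8 CPM in WT PBS libraries (log2 fold change -1.90 ± 0.36, adjusted p = 0.00346 by edgeR), with no overlap. It averaged 9.27 CPM in mutant 5-FU and 44.0 CPM in mutant PBS libraries (-2.25 ± 0.36, adjusted p = 0.0033), also with no overlap.

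Dhrs9, a retinol dehydrogenase, fell in both genotypes at low levels. It averaged 0.0127 CPM in WT 5-FU libraries against 1.42 CPM in WT PBS libraries, and 0 CPM in mutant 5-FU libraries against 0.99 CPM in mutant PBS libraries (adjusted p = 0.0094 and 0.0208 by edgeR). Cyp26b1, which degrades retinoic acid, averaged 0.0595 CPM in WT 5-FU libraries against 1.26 CPM in WT PBS libraries (adjusted p = 0.0462).

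In proline and lysine metabolism, 0 of 8 tested genes rose and 1 fell in WT after 5-FU, with a list median of -0.03. That gene was Pycr1, a pyrroline-5-carboxylate reductase that acts after Aldh18a1 in proline synthesis. It averaged 5.61 CPM in WT 5-FU libraries and 61.7 CPM in WT PBS libraries, with no overlap (log2 fold change -3.46 ± 0.81, adjusted p = 0.0129 by edgeR). Pycr1 thus went down in the comparison in which Aldh18a1 went up. In the mutant Pycr1 read 61.6, 38.3 and 14.9 CPM after 5-FU, against 12.5 to 119 CPM under PBS, with overlap. Among 15 tested Fanconi anemia genes, 1 rose and 0 fell in WT, with a list median of 0.43. Fanca, a core complex subunit, averaged 32.6 CPM in WT 5-FU libraries and 15.1 CPM in WT PBS libraries (1.12 ± 0.31, adjusted p = 0.0276 by edgeR), with no overlap.

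Of 15 tested genes of other aldehyde-handling enzymes, 0 rose and 2 fell in WT after 5-FU, with a list median of -0.27. Gsta4, a glutathione transferase for the lipid aldehyde 4-hydroxynonenal, averaged 5.46 CPM in WT 5-FU and 13.6 CPM in WT PBS libraries (log2 fold change -1.31 ± 0.32, adjusted p = 0.0161 by edgeR). Hagh, a glyoxalase that works on methylglyoxal adducts, averaged 15.6 CPM in WT 5-FU and 27.1 CPM in WT PBS libraries (-0.80 ± 0.23, adjusted p = 0.0298). Among 9 genes of fatty aldehyde formation and use, 0 rose and 1 fell in WT: Sphk1, a sphingosine kinase, averaged 0.0506 CPM in WT 5-FU and 7.83 CPM in WT PBS libraries (adjusted p = 0.0171), with overlapping groups. Of 2 tested genes of carnitine and betaine synthesis, 1 fell in the mutant after 5-FU, where 2.2% of all genes passed. Chdh, the choline dehydrogenase, averaged 2.56 CPM in mutant 5-FU and 10.3 CPM in mutant PBS libraries (-2.01 ± 0.45, adjusted p = 0.0248). The Dhrs3 calls held in each of the 16 fits that left out 1 library. For 5-FU in WT, leaving out replicate 1 or 2 of WT 5-FU ended the calls of Gsta4, Hagh, Fanca and Pycr1. Leaving out replicate 2 of WT PBS ended those of Hagh and Fanca, and replicate 1 or 4 that of Hagh. The Chdh call ended without replicate 4 or 5 of mutant PBS or any 1 of the mutant 5-FU libraries. Among the genes at low levels, the Dhrs9 call in WT ended without replicate 1 or 2 of WT 5-FU and in the mutant without any 1 of the mutant 5-FU libraries, and the Sphk1 call ended without any 1 of the WT 5-FU libraries. Cyp26b1 passed in 6 of 16 such fits, and its call ended without replicate 1, 2 or 3 of WT PBS, any WT 5-FU library, or replicate 1, 2, 4 or 5 of mutant PBS. With the immunoglobulin share as a covariate Gsta4, Hagh, Fanca and Pycr1 did not pass, with adjusted p of 0.312, 0.428, 0.348 and 0.147. Their log2 fold changes in that fit kept their direction, at -0.73 ± 0.33, -0.44 ± 0.23, 0.80 ± 0.38 and -1.05 ± 0.37. In these 6 lists no tested gene passed by edgeR between genotypes under PBS, between genotypes after 5-FU, or for the difference of responses.

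The nearest profiles to Aldh18a1 over the 16 libraries were Nploc4, Hspa4, Dnaja2, Dnajc11 and Tars, at differences of 0.11 to 0.14. For Aldh16a1 they were Vps52, Ccdc22, Thap4, Anapc7 and Hnrnpm, at 0.12 to 0.15. These differences were smaller than those for Aldh3b1, but the measure grows with a gene's own range. Aldh3b1 ran from 1.20 to 56.8 CPM, Aldh18a1 from 44.4 to 170 CPM and Aldh16a1 from 37.0 to 114 CPM. The sizes therefore do not rank likeness between members.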

How the data were processed

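Per the labels' protocols, sorted LSK cells went through the RNeasy Micro kit for RNA and the NuGEN Ovation Ultralow system for libraries. RSEM 1.3.1, FastQC 0.11.2 and the mm10/GRCm38 genome appear in the submitters' processing notes; aligner, annotation release and strand setting: not given in the sources used here. The authors deposited RSEM expected counts, TPM and FPKM for each gene and library, per the file headers, with lengths beside them. FPKM served only for checks. Expected counts were rounded to whole numbers. IDs were matched to GENCODE M21, in which 99.8% of 53342 were found, and promoters to RefSeq, which gave 7 of the 9 members.

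The main test was the quasi-likelihood F test of edgeR 4.0.16 (robust, filterByExpr with minimum count 10, TMM factors between 0.508 and 1.37, 1 mean per group, all 16 libraries), adjusted by Benjamini-Hochberg over 16482 genes at 0.05. Standard errors come from that fit. Alternatives were other scalings, no filter, DESeq2 1.42.0, limma 3.58.1 (voom with quality weights, and trend on log2(TPM + 1)), other sets of samples, covariates, a replicate block and leaving out each library. Each tool was tested on simulated data. The text names the 9 members, other Aldh genes, called genes of pathway lists (at most 4 per comparison) and the 5 nearest profiles of Aldh3b1 and of called members. Results of 1 listed gene are not reported here. Members and lists were chosen with earlier results of these data known. Under PBS, libraries with the same number deviated together (correlations 0.16, 0.24, 0.49, 0.34 and 0.57 for replicates 1 to 5). The numbers were therefore taken to pair those libraries, from the data and not the labels, although mutant replicate 4 matched WT replicate 5 best. Profiles use an offset of 0.1 CPM.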

Additional observations from a re-analysis of the deposited data

Results flagged for a closer look

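In 4 of the 26 PBS groups of 5 libraries examined (1 group per gene and genotype), the highest or lowest library stood apart from the others by more than 95% of random samples of that size would; chance alone flags about 1 in 20. All 4 were replicate 3 of its group. Aldh16a1 was lowest there in mutant PBS, at 37.0 CPM with the next library at 68.7 CPM. Aldh9a1 was lowest in WT PBS replicate 3, at 63.8 CPM with the next at 107 CPM. Aldh1b1, a mitochondrial aldehyde dehydrogenase, was lowest in WT PBS replicate 3, at 7.8 CPM with the next at 16.5 CPM. Aldh5a1 was highest in mutant PBS replicate 3, at 8.37 CPM with the next at 4.68 CPM. These libraries had the highest immunoglobulin share of their groups, 50.2% in mutant PBS and 44.2% in WT PBS, and the lowest TMM factors, 0.508 and 0.547. Of the 9 members, 7 were lowest in replicate 3 in the mutant PBS group, and 7 were lowest there in the WT PBS group.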

How the results depend on the processing

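The count of members called for 5-FU in WT, 2 by the test reported, was 0 with no filter on low counts, with code writing as a covariate, with only libraries whose codes are written alike, and with the immunoglobulin share as a covariate (the last chosen after seeing the data). In those fits 3.87 to 6.18% of all genes passed. The count was 4 by limma-voom, where 42.5% of all genes passed, and 7 by limma-trend on TPM, where 46.2% passed. On that TPM scale the median of all genes moved by 1.01 for 5-FU in WT, against -0.11 in CPM. Leaving out 1 library gave counts from 0 to 2. With the replicate block the count was 5, where 44.4% of all genes passed. The numbers did not pair those groups (correlations 0.01, -0.16 and 0.17), and only replicate 3 matched its own number best. The largest same-number correlation was 0.11 between genotypes after 5-FU and 0.06 between treatments in the mutant. The block changed none of the 0 counts, those of the paired PBS groups included. For mutant over WT after 5-FU, limma-voom called 1, where 30.9% of all genes passed. Code writing, which cannot be told apart from genotype after 5-FU, turned log2 folds of mutant over WT after 5-FU to 0.12 for Aldh16a1, 0.19 for Aldh18a1 and 0.23 for Aldh1l1, the Aldh18a1 difference of responses to 0.15 and Aldh2 for 5-FU in WT to -0.07. Libraries with codes written alike gave -0.06 for Aldh2. The immunoglobulin covariate gave -0.43 for Aldh2, -0.05 for Aldh4a1 and -0.16 for Aldh6a1 for 5-FU in WT. On the TPM scale Aldh1b1 turned to 0.73, Gsta4 to 0.25 and Hagh to 0.64. Leaving out 1 library moved Aldh1a1 for 5-FU in the mutant between -0.03 and 0.70. The cause of these changes was not tested. The Aldh3b1 log2 fold kept its sign in every fit, from -4.83 to -2.56 for 5-FU in WT and from 2.21 to 3.85 for mutant over WT after 5-FU, with the smallest sizes on the TPM scale.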
